A study of Drosophila melanogaster with 6 samples.

Results

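The chitin-binding cuticle protein family of Drosophila melanogaster was examined across 3 adult tissues and 2 genotypes. Its members were taken by name, as every listed gene whose symbol starts with Cpr or Lcp and a digit, or with Ccp84. This rule found 94 of the 17609 genes listed: 70 Cpr, 17 Lcp and 7 Ccp84 genes. The rule used no measured value. Of the 94 members, 86 could be measured. Another 6 lie wholly inside another protein-coding gene (Cpr11B, Cpr57A, Cpr64Aa, Cpr64Ab, Cpr64Ac and Cpr64Ad) and 2 are pseudogenes (Lcp1Psi and Lcp65APsi). All 1820 coding genes that lie inside another coding gene had 0 counted reads, so the 6 nested members are treated as not measured and not as silent.

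The foxo RNAi flies carried Act88F-Gal4, a driver of indirect flight muscle, and a UAS hairpin against the insulin-regulated transcription factor foxo. Their controls carried the same driver crossed to w1118, with no hairpin. Thorax, gut and carcass were taken from flies aged 10 days. There was 1 RNA library for each genotype and tissue, so the 6 libraries hold no replicate of any group. The thorax is labelled as skeletal muscle and the carcass as fat body, and the carcass is described as dissected without intestine and eggs. Its libraries held reads of midgut, ovary and eggshell genes, as given below. A whole thorax and a carcass include the body wall, whose epidermis makes cuticle, and a ratio in bulk RNA cannot tell fewer cells of a type from less RNA per cell.

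Insect cuticle is built of chitin fibres set in a matrix of proteins, and the Cpr, Lcp and Ccp84 proteins share the Rebers and Riddiford (R&R) domain, through which they bind chitin. Different members serve different cuticles, among them the larval skin, the adult body wall, the wing, the trachea, the lining of fore- and hindgut, and the corneal lens of the eye. Most are known to be made while a new cuticle is laid down around a moult or at eclosion, whereas in the adult fly the epidermis no longer moults.

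The libraries held between 13274574 and 34385727 counted reads, with the foxo RNAi thorax library the deepest and the foxo RNAi carcass library the shallowest. In the foxo RNAi libraries foxo itself was at 145 CPM (a gene's counts scaled to a common library total, in counts per 1e+06) in thorax, against 190 CPM in control thorax, a scaled ratio of 0.717 with a 95% counting interval of 0.686 to 0.749. The foxo ratio was 0.783 (0.719 to 0.852) in gut and 0.764 (0.708 to 0.823) in carcass, and reads of the hairpin, if counted, would raise the foxo RNAi value. Flight muscle markers summed to 22160 CPM in foxo RNAi thorax and 25337 CPM in control thorax, midgut markers to 85524 and 117660 CPM in foxo RNAi and control gut, and fat body markers to 65937 and 86804 CPM in foxo RNAi and control carcass. The lower muscle sum in foxo RNAi thorax rests on Act88F, the gene whose promoter the driver uses, which was called 3.02-fold lower, and without it the sums were 19506 CPM in foxo RNAi thorax and 17786 CPM in control thorax. Marker RNA of other cell types also differed between the genotypes, and the cause was not tested. Midgut digestive genes summed to 2019 CPM in foxo RNAi thorax against 75.9 CPM in control thorax. Of these sums Muc68D alone gave 1117 and 2.11 CPM. By the rule described below 8 of 10 were called higher, against 3.56% of all genes tested. In the foxo RNAi carcass the summed photoreceptor markers stood at 101 CPM against 1270 CPM in the control carcass. Of these sums norpA, which had reads in all 6 libraries, gave 91.8 and 107 CPM. The midgut genes stood at 86.9 CPM in foxo RNAi carcass against 911 CPM in control carcass, of which Muc68D gave 4.29 and 440 CPM. The ovary and eggshell genes stood at 11941 against 4668 CPM.

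The family was a small part of the adult transcriptome. Its members held 36828 reads over the 6 libraries. In foxo RNAi thorax they made up 0.0357% of counted reads (95% exact binomial interval 0.0351 to 0.0364), against 0.0375% in control thorax (0.0366 to 0.0384). The shares were 0.00654% in foxo RNAi gut (0.00612 to 0.00697) and 0.00491% in control gut (0.00455 to 0.00528). Those of carcass were 0.0578% in the foxo RNAi library (0.0565 to 0.0591) and 0.0542% in the control library (0.0531 to 0.0554). The family thus took a larger share in each thorax and carcass library than in either gut library. These intervals and the read floors given later cover counting error only.

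A few members carried most of the reads, and which member led differed between tissues. The 10 most read members held 92.1% of the family's reads. In gut 1 gene, Cpr67B, gave 82.8% of the family's reads in the foxo RNAi library and 72.4% in the control library. In carcass Cpr49Ab gave 75.8% in the foxo RNAi library and 64.0% in the control library. No single member dominated thorax, where the most read was Cpr67B with 21.7% in the foxo RNAi library and Cpr66D with 18.9% in the control library.

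**Figure D1:**
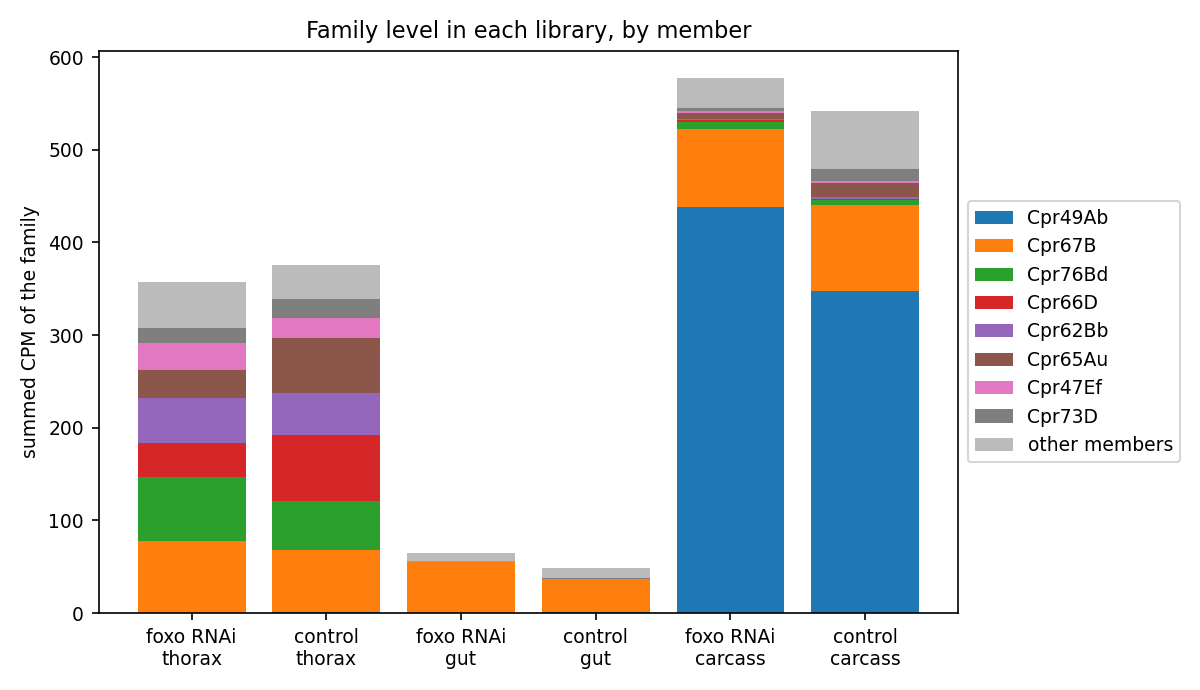
Summed CPM of the family in each of the 6 libraries, stacked by member, with the 8 most read members in colour and all others in light grey. Cpr49Ab fills most of both carcass bars and Cpr67B most of both gut bars, whereas the thorax bars are split over several members.

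Most of the family had few reads or none. Of the 94 members, 71 had at least 1 read, 41 had at least 10, 27 had at least 30, 16 had at least 100 and 8 had at least 1000 over the 6 libraries. Among the 86 measured members, 82.6% had at least 1 read and 31.4% had at least 30. Of the other 11988 coding genes that do not lie inside another, 92.8% and 79.9% did. With 0 reads, a level of up to 3 reads is allowed in each library, which is worth between 0.0872 CPM in foxo RNAi thorax and 0.226 CPM in foxo RNAi carcass.

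The name groups differed in how much was detected. Cpr genes held 99.5% of the family's reads, and 24 of their 64 measured members had at least 30. The Lcp genes, named as larval cuticle proteins, together had 111 reads, which is 0.301% of the family's total, and 1 of 15 measured members (Lcp65Ac, with 30) reached 30 reads. The 7 Ccp84 genes together had 78 reads, and 2 of them (Ccp84Ag with 40 and Ccp84Ac with 33) reached 30. The 15 measured members at 0 reads in every library were Ccp84Aa, Ccp84Ae, Ccp84Af, Cpr35B, Cpr47Ec, Cpr47Ed, Cpr49Ad, Cpr65Aw, Cpr65Ax1, Cpr65Ax2, Cpr67Fb, Lcp65Aa, Lcp65Ab1, Lcp65Ab2 and Lcp65Ag1. Several of these have near-identical copies (Lcp65Ab1 and Lcp65Ab2, Cpr65Ax1 and Cpr65Ax2, the Lcp65Ag genes). The treatment of reads that map to several places is not given in the sources used, which leaves these zeros uncertain.

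The detected members tended to be longer genes. The median coding length was 651 bases and the median exon number 3 among the 27 members with at least 30 reads. The 59 other measured members had medians of 402 bases and 2 exons. Read counts grow with transcript length, and this comparison is not corrected for it.

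Genes of the family lie in clusters, and in the clusters with many reads most came from a single gene. Members no more than 20 kb apart formed 12 clusters of at least 3 genes, which hold 68 of the 94 members. The clusters at 44D, 65E, 67F, 78C and 84A had at most 78 reads each over all libraries, too few to judge this. None of the members at 64A was measured. Coordinates are those of Release 6 of the fly genome. In the cluster at 65A (chromosome 3L, 6130386 to 6161589), which has 18 members, Cpr65Au held 97.6% of 2494 reads. The 76B cluster (chromosome 3L, 19517552 to 19538289) had 98.0% of its 3574 reads in Cpr76Bd. At 49A (chromosome 2R, 12376626 to 12415170, 8 members) Cpr49Ab had 93.2% of 12119 reads, and at 62B (chromosome 3L, 1824129 to 1842084) Cpr62Bb had 94.5% of 2684. The reads were less uneven at 47E (chromosome 2R, 11251751 to 11278445, 7 members), where Cpr47Ef held 71.8% of 2004 reads and Cpr47Ee most of the rest.

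Neighbouring genes also differed in tissue. Within 49A, Cpr49Aa was highest in thorax while Cpr49Ab, Cpr49Ac, Cpr49Ae and Cpr49Ah were highest in carcass. The neighbours at 62B also differed, with Cpr62Bb at its highest in thorax and Cpr62Ba almost without reads there. Of the clusters of larval genes, the one at 44D, with Lcp1 to Lcp4, had 46 reads in all libraries together, of which Lcp1 had 28.

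**Figure D2:**
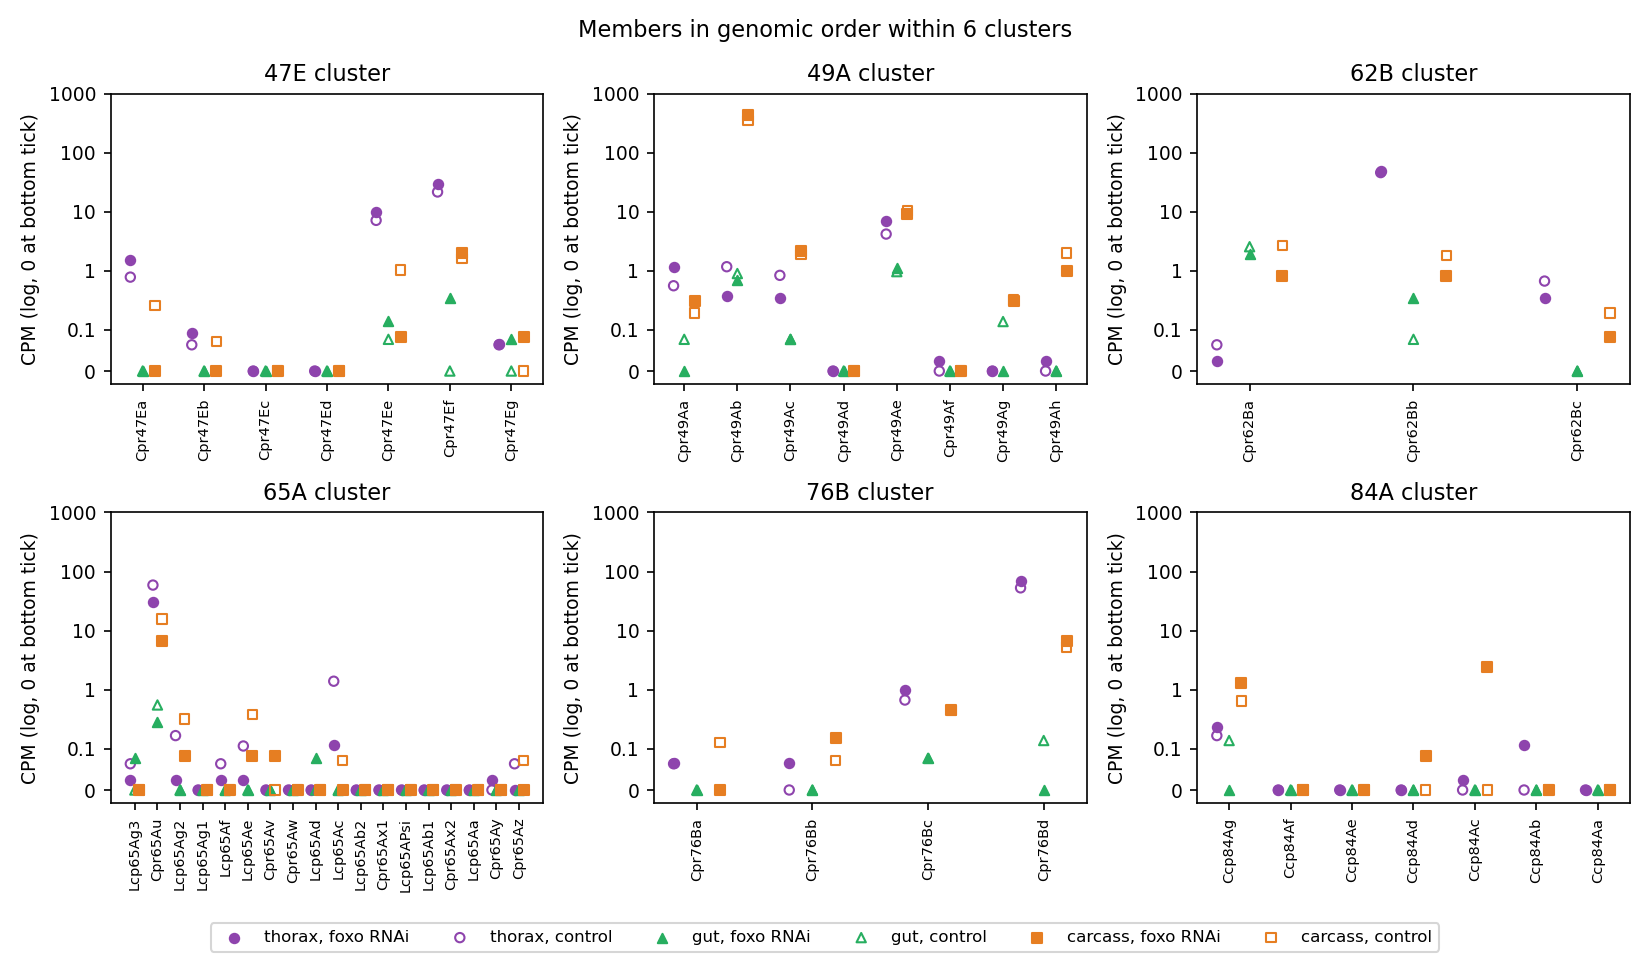
CPM of every member in 6 of the clusters, in genomic order within each, on a log axis with 0 drawn at the bottom tick, filled symbols for foxo RNAi and open symbols for control, which can lie behind the filled ones. In the 49A, 62B, 65A and 76B clusters 1 gene stands far above its neighbours in the tissue where the cluster is highest.

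Members differed widely between tissues. Of the 27 members with at least 30 reads, 14 had a higher CPM in both thorax libraries than in any other library, 8 in both carcass libraries and 1 in both gut libraries, while 4 overlapped. Of all genes with at least 30 reads, 26.8% separated in this way in thorax, 31.3% in carcass and 13.1% in gut. Differences between tissues were tested by edgeR's quasi-likelihood method on the 6 libraries, with genotype as a covariate. Since the pair of libraries of a tissue differs in genotype, these p-values rest on the scatter that a shared genotype effect leaves. That scatter has 2 degrees of freedom for each gene, and the method combines it with the spread estimated over all genes tested. The filter on low counts kept 21 members of the 9293 genes tested, and a gene kept for its reads in only 1 tissue was bound to differ, so the counts of members describe those 21 and not the family. Separate dissections or batches for the tissues cannot be told apart from tissue.

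Thorax over gut gave the most calls. Of the 21 members, 13 were higher in thorax, 2 were lower and 6 were not called at an adjusted p under 0.05, while 28.1% of all genes tested were higher and 26.5% were lower. The members' median log2 fold change was 3.01, against -0.06 over all genes. Thorax over carcass gave 8 higher, 4 lower and 9 not called, with 21.9% and 19.3% of all genes higher and lower, and medians of 1.04 and -0.03. Carcass over gut gave 11 higher, 1 lower and 9 not called, with 22.8% and 20.7% of all genes higher and lower, and medians of 2.78 and 0.10. Leaving out the control gut library reduced the members higher in thorax than in gut to 8 and those higher in carcass than in gut to 3, and without the foxo RNAi gut library the second of these counts was 5. Without the foxo RNAi thorax library, 5 members were higher in thorax than in carcass and 1 was lower in thorax than in gut, and without the control thorax library 2 were lower in thorax than in carcass.

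Among the thorax members, Cpr76Bd (chromosome 3L, 19532743 to 19538289, plus strand) has the longest coding sequence of the detected members, 3693 bases. It had 69.1 CPM in foxo RNAi thorax and 52.9 CPM in control thorax, 6.78 and 5.25 CPM in foxo RNAi and control carcass, and 0 and 0.138 CPM in foxo RNAi and control gut, from 0 and 2 reads. Both thorax libraries lay above both carcass libraries, which lay above both gut libraries. The log2 fold change was 9.17 over gut (approximate SE 0.62, adjusted p = 0.000469) and 3.52 over carcass (SE 0.38, adjusted p = 0.00333). Carcass was also above gut, by 5.65 (SE 0.67, adjusted p = 0.00227).

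Cpr62Bb (chromosome 3L, 1832636 to 1835164, minus strand) was as restricted. Its thorax values were 48.5 CPM in the foxo RNAi library and 45.8 CPM in the control library. In carcass it had 0.829 and 1.79 CPM, and in gut 0.351 and 0.0688 CPM, in foxo RNAi and control libraries in that order. The thorax stood apart from all other libraries, with a log2 fold change of 7.30 over gut (SE 0.65, adjusted p = 0.000730) and 5.34 over carcass (SE 0.53, adjusted p = 0.00273). Carcass and gut were not called different, at 1.96 (SE 0.75, adjusted p = 0.0859).

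Cpr66D, a known component of the corneal lens (chromosome 3L, 8640439 to 8643584, plus strand), was also a thorax gene in these libraries. It had 36.6 CPM in foxo RNAi thorax and 70.9 CPM in control thorax, 2.34 and 0.704 CPM in foxo RNAi and control carcass, and 0.211 and 0.138 CPM in foxo RNAi and control gut. Thorax exceeded gut by a log2 fold change of 7.75 (SE 0.84, adjusted p = 0.00126) and carcass by 5.36 (SE 0.67, adjusted p = 0.00462). Its carcass values rest on 31 reads in the foxo RNAi library and 11 in the control library. Photoreceptor markers summed to 1270 CPM in control carcass, more than in any other library. The part of eye tissue in the Cpr66D values was not tested.

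Cpr65Au (chromosome 3L, 6131242 to 6132109, minus strand), with a short coding sequence of 318 bases, had the highest level per kilobase of exon of the members in thorax by the mean of the 2 libraries. On that scale it stood at 56.9 CPM per kb in foxo RNAi thorax, below Cpr67B at 76.9, and at 112 CPM per kb in control thorax, above Cpr67B at 66.5. Its CPM was 29.9 and 59.0 in foxo RNAi and control thorax, 6.63 and 15.6 in foxo RNAi and control carcass, and 0.281 and 0.550 in foxo RNAi and control gut. The 3 tissues did not overlap: the log2 fold change was 6.24 for thorax over gut (SE 0.32, adjusted p = 0.000392), 2.22 for thorax over carcass (SE 0.24, adjusted p = 0.00319) and 4.01 for carcass over gut (SE 0.32, adjusted p = 0.000795). In each of the 3 tissues the foxo RNAi library had the lower value.

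Cpr47Ef, Cpr100A and Cpr97Eb completed the thorax members with the smallest adjusted p. Cpr47Ef (chromosome 2R, 11266915 to 11272575, minus strand), which has 17 exons, had 28.9 and 21.5 CPM in foxo RNAi and control thorax, 1.96 and 1.60 CPM in foxo RNAi and control carcass, and 0.351 and 0 CPM in foxo RNAi and control gut. Its log2 fold change was 6.72 for thorax over gut (SE 0.72, adjusted p = 0.00125) and 3.99 for thorax over carcass (SE 0.55, adjusted p = 0.00592). Cpr100A (chromosome 3R, 30867521 to 30869184, plus strand) had 11.3 and 6.78 CPM in foxo RNAi and control thorax and at most 1.09 CPM elsewhere. Its log2 fold change was 3.60 for thorax over carcass, a call lost without the foxo RNAi thorax library. Cpr100A passed the filter on low counts through thorax alone, so its tissue calls, which are among the counts above, are not given as tests. Cpr97Eb (chromosome 3R, 27089704 to 27091130, minus strand) had 7.79 and 5.56 CPM in foxo RNAi and control thorax, 3.16 and 1.92 CPM in foxo RNAi and control carcass, and 0.141 and 0.138 CPM in foxo RNAi and control gut. It was higher in thorax than in gut (log2 fold change 5.04, SE 0.56, adjusted p = 0.00134) and in carcass than in gut (3.45, SE 0.58, adjusted p = 0.00695, but 0.0884 without the foxo RNAi gut and 0.0560 without the control gut library). Its call for thorax over carcass (1.59, SE 0.40, adjusted p = 0.0288) was lost whichever library was left out, with adjusted p between 0.0667 and 0.192.

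The carcass was dominated by Cpr49Ab (chromosome 2R, 12378440 to 12379396, plus strand). It had 0.378 and 1.17 CPM in foxo RNAi and control thorax, 438 and 347 CPM in foxo RNAi and control carcass, and 0.703 and 0.895 CPM in foxo RNAi and control gut. Both carcass libraries stood far above the other 4. The log2 fold change was 8.30 for carcass over gut (SE 0.56, adjusted p = 0.000614) and -8.96 for thorax over carcass (SE 0.57, adjusted p = 0.00144). Per kilobase of exon Cpr49Ab reached 514 CPM per kb in foxo RNAi carcass and 408 CPM per kb in control carcass, the highest level of any member in any tissue.

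Other members higher in carcass than in gut were far less abundant. Cpr49Ae, at 9.04 and 10.3 CPM in foxo RNAi and control carcass and 1.12 and 0.963 CPM in foxo RNAi and control gut, was higher in carcass than in gut by a log2 fold change of 2.55 (SE 0.44, adjusted p = 0.00762) and was not called between thorax and carcass. Leaving out the foxo RNAi gut or the control gut library ended that call (adjusted p = 0.0729 and 0.0714). Cpr60D had 1.51 and 3.20 CPM in foxo RNAi and control carcass and 0.0703 and 0.206 CPM in foxo RNAi and control gut, a difference of 3.36 (SE 0.66, adjusted p = 0.0117) that was lost without the foxo RNAi gut (0.105), control gut (0.103) or control carcass library (0.0517). In foxo RNAi and control thorax Cpr49Ae had 6.89 and 4.17 CPM, and Cpr60D had 1.19 and 1.95 CPM. Both were also higher in thorax than in gut. The log2 fold change was 1.90 for Cpr49Ae (SE 0.44, adjusted p = 0.0154) and 3.01 for Cpr60D (SE 0.66, adjusted p = 0.0133). These calls too were lost in some fits with a library left out. Cpr60D was not called between thorax and carcass. Cpr49Ah and Cpr56F had reads almost only in carcass. Cpr49Ah had 1 and 0 reads in foxo RNAi and control thorax, 13 and 31 reads in foxo RNAi and control carcass, and 0 in gut. Cpr56F had 0 reads in thorax, 19 and 12 reads in foxo RNAi and control carcass, and 0 in gut. Both passed the filter on low counts through carcass alone, so their tissue calls, which are among the counts above, are not given as tests.

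Cpr62Ba and Cpr78E ran the other way. Cpr62Ba (chromosome 3L, 1824129 to 1831783, minus strand) had 1 read in each thorax library, but 0.829 and 2.69 CPM in foxo RNAi and control carcass and 1.90 and 2.55 CPM in foxo RNAi and control gut. The log2 fold change was -6.03 for thorax over gut (SE 0.76, adjusted p = 0.00204) and -4.86 for thorax over carcass (SE 0.77, adjusted p = 0.00826), both lower in thorax. Cpr78E (chromosome 3L, 21666452 to 21666980, minus strand) had 0.116 and 0.0556 CPM in foxo RNAi and control thorax, 0.603 and 0.192 CPM in foxo RNAi and control carcass, and 1.12 and 1.17 CPM in foxo RNAi and control gut. It was the only member among the 27 with both gut libraries on top. The log2 fold change of Cpr78E was -4.14 for thorax over gut and -2.30 for carcass over gut. Cpr78E passed the filter on low counts through gut alone. Its tissue calls, which are among the counts above, are therefore not given as tests. The call for thorax over gut was also lost in some fits with a library left out. That for carcass over gut was lost whichever library was left out, and with 3 of 4 other settings.

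Cpr67B and Cpr51A were present in every library with no tissue call. Cpr67B (chromosome 3L, 9404797 to 9406174, plus strand) had 77.7 and 67.2 CPM in foxo RNAi and control thorax, 85.0 and 93.8 CPM in foxo RNAi and control carcass, and 54.1 and 35.5 CPM in foxo RNAi and control gut. The log2 fold changes were 0.22 for thorax over gut (SE 0.23), -0.13 for thorax over carcass (SE 0.23) and 0.35 for carcass over gut (SE 0.23), with adjusted p between 0.263 and 0.662. It ranked first in gut and second in thorax and carcass among the members by CPM per kb of exon, and it is the source of most of the family's gut reads. Cpr51A (chromosome 2R, 14512559 to 14515211, minus strand), which overlaps another coding gene in part, had between 2.32 and 4.82 CPM in the 6 libraries, both ends of that range in gut.

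**Figure D3:**
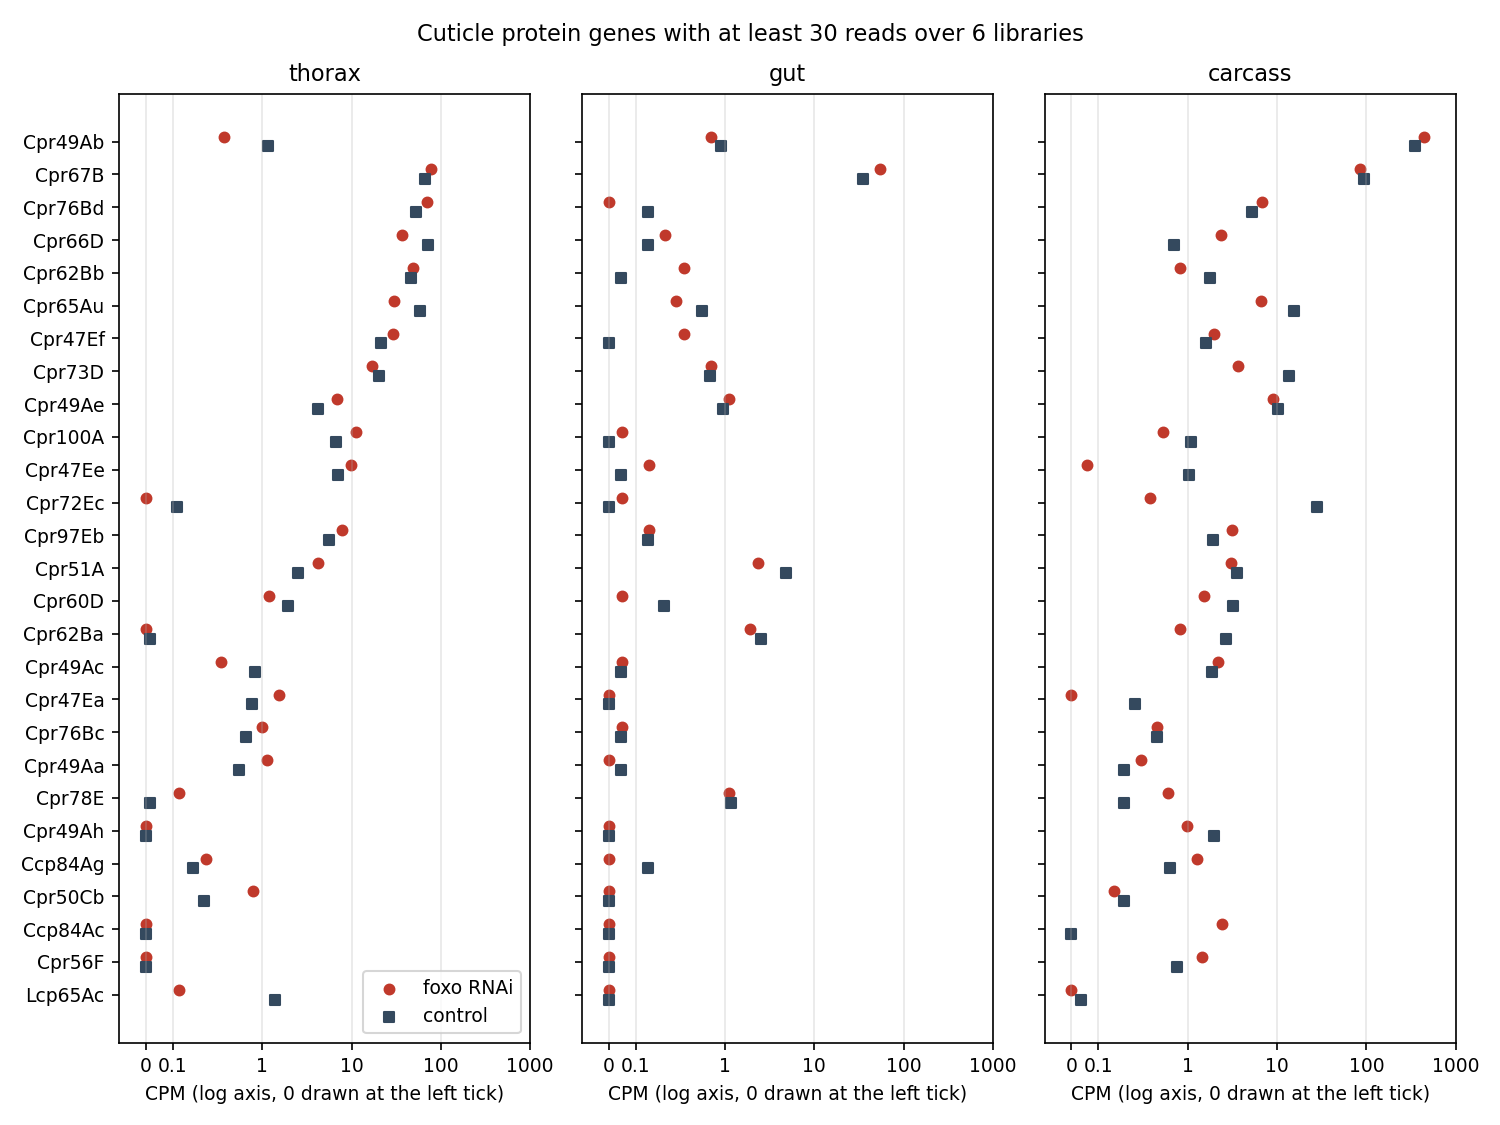
CPM of the 27 members with at least 30 reads in thorax, gut and carcass, on log axes with 0 drawn at the left tick, 1 red circle for the foxo RNAi library and 1 dark square for the control library of each tissue. Most members have their points furthest to the right in the thorax panel, Cpr49Ab has them in the carcass panel, and Cpr67B lies far to the right in all 3.

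The genotypes were compared within each tissue as a pair of libraries, without a test. A call, higher or lower, was made for a member when the pair held at least 30 reads, the scaled ratio was at least 2-fold and the bound of its 95% counting interval nearest to equality was at least 1.5-fold. Folds below use TMM scaling, which sets the typical gene near equality, and differ a little from the quotient of the CPM values. With total-count scaling in its place the median log2 ratio of all genes moved to 0.09 in thorax, 0.22 in gut and 0.22 in carcass, against 0.00, -0.01 and 0.06.

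In thorax, 18 members reached 30 reads. None was called higher and 3 were called lower, while 3.56% of all genes tested were called higher and 2.72% lower. The members' median log2 ratio was 0.36, above that of all genes, and 12 of the 18 had ratios above 1.

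Cpr65Au and Cpr66D were lower in foxo RNAi thorax on many reads. Cpr65Au had 1029 reads in the foxo RNAi library and 1061 in the control library, which is about as many in a deeper library, and was 2.09-fold lower (interval 1.92 to 2.28). Cpr66D had 1260 and 1276 reads in foxo RNAi and control thorax and was 2.06-fold lower (1.90 to 2.22). Both lie just inside the 2-fold limit, and with total-count scaling they were 1.97-fold and 1.94-fold lower and were not called. Cpr49Ab, the carcass member, had 13 and 21 reads in foxo RNAi and control thorax and was 3.23-fold lower (1.57 to 7.13). With total-count scaling it was 3.04-fold lower and not called, because the near bound of its interval was 1.48-fold.

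The larval gene Lcp65Ac fell just short of the read minimum. It had 4 reads in foxo RNAi thorax and 25 in control thorax, an 11.5-fold lower level with an interval of 4.38 to 50.2. Cpr50Cb lay the other way, with 27 and 4 reads in foxo RNAi and control thorax, and was 3.01-fold higher, but its interval (1.16 to 13.1) missed the limit. The other abundant thorax members stayed close to equality. The ratio was 1.23 for Cpr76Bd (1.14 to 1.33), 1.09 for Cpr67B (1.02 to 1.17), 1.00 for Cpr62Bb (0.919 to 1.09) and 1.27 for Cpr47Ef (1.13 to 1.43), all under the 2-fold limit. Midgut genes were higher in the foxo RNAi thorax library, as given above, and 5 of 8 photoreceptor markers tested were called higher and 1 lower. Of the midgut markers 0 of 10 and of the photoreceptor markers 0 of 10 were at 0 reads in either thorax library. The summed epidermal markers were 506 CPM in foxo RNAi thorax and 659 CPM in control thorax, with 0 of 4 called, but 137 and 112 CPM without vri, so the direction of the sum rests on that gene. Their part in the members' ratios was not tested.

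In gut, 5 members reached 30 reads, 0 were called higher and 1 was called lower, with 2.22% and 3.18% of all genes tested called higher and lower. The members' median log2 ratio was -0.29. Cpr51A had 33 reads in foxo RNAi gut and 70 in control gut and was 2.43-fold lower (1.59 to 3.82). With total-count scaling it was 2.06-fold lower and not called. Cpr67B, with 770 and 516 reads in foxo RNAi and control gut, had a ratio of 1.29 (1.16 to 1.45). The family's share of reads in foxo RNAi gut was 1.33-fold that of control gut with Cpr67B and 0.830-fold without it.

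In carcass, 18 members reached 30 reads, 1 was called higher and 4 were called lower. Of all genes tested 3.41% were called higher and 10.2% lower, so lower calls were common in this pair of libraries. The members' median log2 ratio was -0.33, against 0.06 over all genes, and 8 of the 18 members had ratios above 1.

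Cpr72Ec, the other known lens protein of the family (chromosome 3L, 16365894 to 16367340, minus strand), differed most. It had 5 reads in foxo RNAi carcass and 443 in control carcass, or 0.377 CPM against 28.4 CPM, and was 76.9-fold lower (35.9 to 262). The other 4 libraries held 4 reads of it together. Lens proteins outside the family were also lower: retinin had 1 read in foxo RNAi carcass and 223 in control carcass, and Crys (drosocrystallin) had 6 and 46. Crys is not restricted to the carcass, since it had 4654 reads in foxo RNAi gut and 1660 in control gut. Of the photoreceptor markers 8 of 10 were called lower in foxo RNAi carcass. The rhodopsin ninaE had 22 reads in foxo RNAi carcass and 11546 in control carcass, while inaC and Rh3 were at 0 in the foxo RNAi library. Cpr66D lay the other way, with 31 reads in foxo RNAi carcass and 11 in control carcass and a ratio of 2.87 (1.45 to 6.52), just short of a call for higher. The part of eye tissue in these ratios was not tested.

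The other 3 members called lower in foxo RNAi carcass were lower by smaller factors. Cpr73D (chromosome 3L, 16939100 to 16957689, minus strand), which overlaps another coding gene in part, had 48 reads in foxo RNAi carcass and 212 in control carcass and was 4.18-fold lower (3.07 to 5.89). Cpr62Ba had 11 and 42 reads and was 3.52-fold lower (1.84 to 7.84). Cpr65Au had 88 and 244 reads and was 2.63-fold lower (2.06 to 3.41), and it was the only member called lower in more than 1 tissue, though not in thorax with total-count scaling. All 4 lower calls held with total-count scaling and with DESeq2 size factors.

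Ccp84Ac (chromosome 3R, 6695148 to 6696271, minus strand) was the 1 member called higher. It had 32 reads in foxo RNAi carcass and 0 in control carcass. Against a floor of 3 reads in the control library it was at least 11.2-fold higher, while the exact interval of the ratio, which also carries the counting error of the 32 reads, starts lower, at 8.58-fold. Of the 4 other libraries only foxo RNAi thorax had a read, 1. Below the read minimum, Cpr65Eb (13 reads in foxo RNAi carcass and 0 in control carcass) and Cpr65Ea (6 and 0) lay the same way, whereas Cpr47Ee (1 and 16) and Cpr78Cc (0 and 6) lay the other way.

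Cpr49Ab, the dominant carcass gene, had 5814 reads in foxo RNAi carcass and 5424 in control carcass, a ratio of 1.12 (1.08 to 1.17). The family's share of reads in foxo RNAi carcass was 1.07-fold that of control carcass with Cpr49Ab and 0.718-fold without it. Cpr67B had 1128 and 1465 reads in foxo RNAi and control carcass and a ratio of 0.807 (0.746 to 0.873). Cpr60D (20 and 50 reads, 2.35-fold lower, 1.39 to 4.23), Cpr62Bb (11 and 28, 2.36-fold lower, 1.17 to 5.40) and Cpr49Ah (13 and 31, 2.23-fold lower, 1.16 to 4.74) passed 2-fold but not the interval limit.

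**Figure D4:**
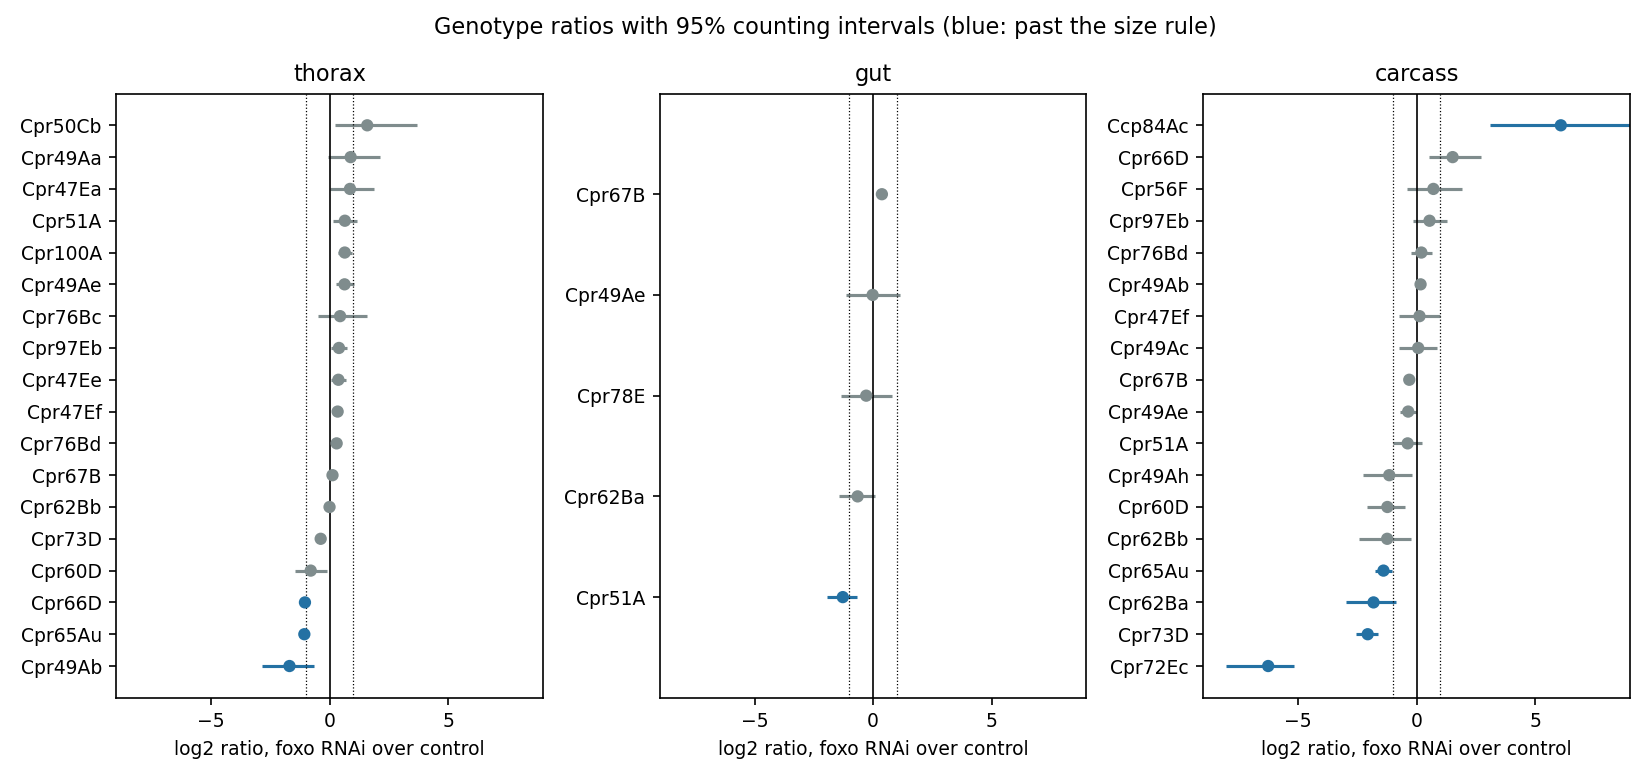
Log2 ratio of foxo RNAi over control for each member with at least 30 reads in a tissue, with its 95% counting interval, blue where the member was called and grey where it was not, and dotted lines at 2-fold. Cpr72Ec lies far to the left and Ccp84Ac far to the right in carcass, where the upper end of the Ccp84Ac interval is unbounded and leaves the plot.

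Genes that work with these proteins were described from lists chosen by role. Of all genes tested, 3.56% were called higher and 2.72% lower in thorax, 2.22% and 3.18% in gut, and 3.41% and 10.2% in carcass. These shares belong beside the counts of every list below. Chitin synthesis and modification had 0 genes called lower in any tissue and 3 of 15 called higher in thorax, 0 of 8 in gut and 6 of 13 in carcass. In thorax those called higher were the chitin deacetylases serp (1343 reads in foxo RNAi thorax, 175 in control thorax, 3.77-fold), verm (1952 and 282 reads, 3.41-fold) and Cda9 (380 and 18 reads, 10.1-fold). Cda9 also had 401 and 273 reads in foxo RNAi and control gut, and the midgut markers were higher in the foxo RNAi thorax library, at 2019 CPM against 75.9 CPM in control thorax. Their part in the thorax calls was not tested. In carcass the genes called higher included the chitin synthase kkv, with 130 reads in the foxo RNAi library and 16 in the control library, 8.29-fold higher (5.05 to 15.3), and the deacetylase Cda4, with 67 and 10 reads, 6.74-fold higher (3.59 to 15.3). The Obstructor proteins, which bind chitin through another domain, had 3 of 6 called higher in thorax (obst-A, obst-E and obst-H), 1 of 3 in gut (obst-H) and 1 of 5 in carcass (obst-B), and 0 lower. obst-H had 58 and 2 reads in foxo RNAi and control thorax and 67 and 17 in foxo RNAi and control gut. In carcass it had 1 read in the foxo RNAi library and 26 in the control library, 16.8-fold lower (4.07 to 1017) but under the read minimum.

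The tanning enzymes, which harden and colour cuticle, went the other way in carcass, where 5 of 10 were called lower and 0 higher. In that pair of libraries 10.2% of all genes tested were called lower. Photoreceptor markers summed to 101 CPM in foxo RNAi carcass and 1270 CPM in control carcass, of which norpA gave 91.8 and 107 CPM. The part of other cell types in these calls was not tested. Ddc, which makes dopamine for cuticle cross-linking, had 189 reads in foxo RNAi carcass and 438 in control carcass, 2.21-fold lower (1.86 to 2.64). None of 11 was called in thorax or of 7 in gut. The R&R proteins with other names had few reads: Acp65Aa, Edg78E and resilin had at most 16 reads in a library, Edg84A had 0, Pcp lies inside another gene, and 0 reached the read minimum in any pair.

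The Tweedle proteins are a separate cuticle family, of which 13 of 20 measured members had reads. TwdlF was called higher in carcass, with 241 reads in the foxo RNAi library and 2 in the control library. Osiris genes, which are active in cuticle-forming epithelia, were added after their values were seen. They summed to 319 CPM in foxo RNAi carcass and 2.30 CPM in control carcass, with 9 of 10 called higher. Osi6 had 1735 reads in foxo RNAi carcass and 0 in control carcass, and Osi7 had 1567 and 2. Among the marker lists in carcass, 5 of 8 ovary and eggshell genes were called higher, 0 of 8 of them at 0 in either library, and 1 of 5 epidermal markers (sha, 92 and 7 reads) was called higher and 1 (vri) lower. For tracheal markers 1 of 6 was called higher, Osi6 again, with sums of 297 CPM in foxo RNAi carcass and 237 CPM in control carcass that turn round to 167 and 237 CPM without it. The fore- and hindgut markers summed to 19.5 and 28.4 CPM in foxo RNAi and control carcass. Whether these cells bear on the carcass values of Ccp84Ac and its neighbours was not tested.

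**Figure D5:**
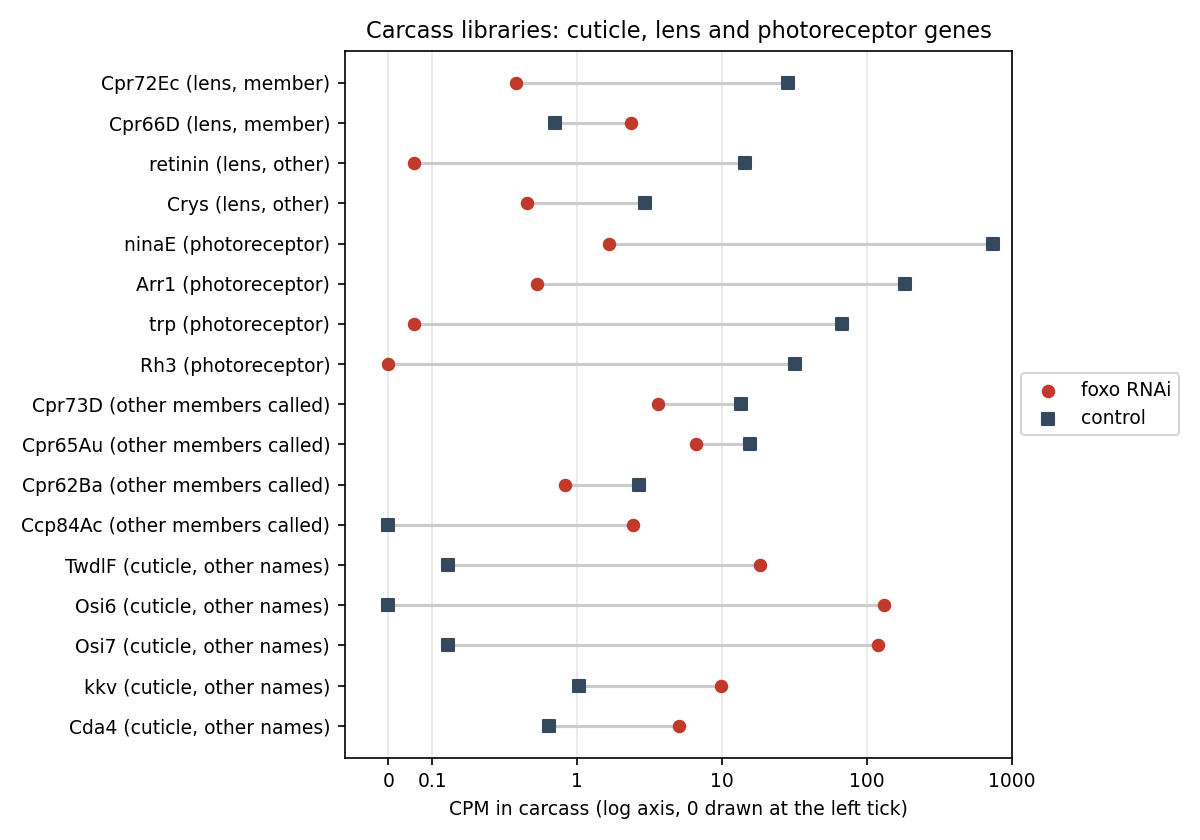
CPM of members, lens genes, photoreceptor genes and other cuticle genes in the foxo RNAi (red circles) and control (dark squares) carcass libraries, on a log axis with 0 drawn at the left tick, a grey line joining the 2 values of a gene. Cpr72Ec, retinin, Crys and the photoreceptor genes lie to the left in the foxo RNAi library, whereas Ccp84Ac, TwdlF, Osi6, Osi7, kkv and Cda4 lie to the right.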

How the data were processed

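RNA was measured in 6 libraries, 1 per genotype and tissue. Per the labels' protocols a stranded total RNA kit was used. The design text names 50-base reads, mapped to Release 6. Which aligner, counter, annotation and strand setting served is not given in the sources used. Raw whole-number counts per gene were deposited by the authors, and all tests used them. The RPKM values deposited beside them, which divide by the full gene span with introns, served only as an alternative. The design text gives fewer reads per library than the deposited counts sum to.

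CPM is a gene's count over its library total. Positions, exons and overlaps came from the Ensembl 115 annotation of the same assembly, to which 94 members matched by symbol. Genotype ratios used TMM factors from the pair of libraries (edgeR 4.0.16 in R 4.3.3), 0.5 added to each count, and exact Clopper-Pearson 95% intervals (scipy 1.17.1), with no p-value. Intervals and floors of 3 counts cover counting error only, and PCR copies are not independent molecules. Tissues were tested with edgeR's quasi-likelihood test (TMM, filterByExpr by tissue, genotype term, 2 residual degrees of freedom, common biological coefficient of variation 0.296), with Benjamini-Hochberg adjusted p under 0.05 over 9293 genes. The SE is approximate, derived from the fold change and its F statistic. Both procedures were tested on simulated data. Total-count, DESeq2 1.42.0 and RPKM scaling, read minimums of 10 and 100, other filters and left-out libraries were tried.

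The members and lists were chosen with earlier results of these data known. The text names each called member, the 3 members with most reads per kb of exon in each tissue, and up to 6 with the smallest adjusted p per tissue comparison and direction. Other members it names were chosen after their values were seen, as were Crys, retinin and the Osiris list.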

Additional observations from a re-analysis of the deposited data

Results flagged for a closer look

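A small value above 0 appeared for a pseudogene of the family in the column that the comparisons do not use. Lcp1Psi had 0 counted reads in every library, but its RPKM was 0.116 in foxo RNAi thorax and 0.111 in control thorax, and 0 in the other 4 libraries. The foxo RNAi value is barely above that of the control, and with 1 library each the difference was not tested.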

How the results depend on the processing

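With total-count scaling the members called lower in foxo RNAi numbered 0 in thorax, against 3 reported, and 0 in gut, against 1. On the RPKM scale they numbered 1 in thorax and 0 in gut, and without members that overlap another coding gene 0 in gut. The members called higher in foxo RNAi carcass, 1 as reported, numbered 2 on the RPKM scale, with total-count scaling and with the minimum set to 10 reads, and 0 with it set to 100. The family's share ratio turned round without its most abundant member in gut (0.830) and carcass (0.718) and with TMM-scaled library sizes in carcass (0.949). The member lower in carcass than in gut, Cpr78E, was lost with DESeq2, RLE scaling and no read filter (0 each). Where an alternative changed a result, the cause was not tested.

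With 1 library left out at a time, the members higher in thorax than in gut numbered 8 to 13 and those lower 1 to 2. For thorax over carcass they numbered 5 to 8 and 2 to 5, and for carcass over gut 3 to 14 and 0 to 0. In these fits a lone library of a tissue is assumed to vary like the others. Of the remaining results, 352 single values kept their side of the threshold, 78 lost it, 3 were reversed and 3 moved. The tissue fits pair the libraries by genotype. Without that term the members higher in carcass than in gut numbered 12, and the other 5 counts did not move. A count of 0 in the shallowest library, with 13274574 reads, allows a level of up to 0.226 CPM.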
